A study of Mus musculus with 6 samples.

Results

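Immature and migrating neuron genes were followed in cerebellum of mice lacking Gb5, the G protein beta subunit encoded by Gnb5. The 33 genes were named by symbol, out of 18193 genes that had a probe set annotated to a single gene. Each gene was represented by its probe set with the highest mean over the 6 arrays, and 93 single-gene probe sets covered the 33 genes. RNA came from brain tissue, named as cerebellum in the title of the study, of 3 Gb5-deficient mice (Gb5 KO, arrays 4, 5 and 6) and 3 wild-type mice (WT, arrays 1, 2 and 3), each a biological replicate on its own Affymetrix array. Gb5 KO mice were compared with littermates described as matched for age and sex; the labels used here give no age, sex, strain or design of the deleted allele, and state no treatment. Values are log2 signals, so a difference of 1 is a doubling of signal, and no gene's level was ranked against that of another gene; brightest and dimmest below refer to the mean signal of probe sets of the same gene.

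Neurons that have just left the cell cycle pass through a short migratory state before they form synapses. They carry a dynamic microtubule cytoskeleton with doublecortin and neuron-specific tubulin, transcription factors of the SoxC and bHLH families, and adhesion molecules by which they follow glial fibres and axons. In the mouse cerebellum the best known such cells are granule neurons, which are born at the surface after birth, extend parallel fibres and move inward along Bergmann glia; the genes are then largely replaced by those of mature granule cells. The comparison addresses whether transcripts of this state were kept or lost when Gb5 was absent.

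Before the members, the arrays were checked against their labels. Gnb5 itself read 3.65, 3.36 and 2.96 on the Gb5 KO arrays, against 8.80, 8.51 and 8.70 on the WT arrays, a log2 difference of -5.35 (SE 0.18; limma adjusted p = 4.33e-06). Gb5 KO array 6 stood apart: Eif2s3y, a Y-linked gene, read 11.80 there against 3.19 to 3.43 on the other 5 arrays, and Xist, the female-specific RNA, read 8.22 against 11.17 to 11.64. The 3′ minus 5′ signal of the Gapdh control was 1.58 on that array and between 1.03 and 1.14 on the others. These signals go against the sex matching that the labels describe, so results of the members as a set are also given without that array. Markers of the cerebellum were above the low-signal threshold of 4.70 (defined with the test) on both genotypes: Pcp2 and Calb1 of Purkinje cells averaged 12.68 and 12.95 in Gb5 KO and 12.62 and 12.98 in WT, and Gabra6 and Cbln3 of granule cells 12.45 and 12.46 in Gb5 KO and 12.63 and 12.57 in WT. Of 10 measured markers of forebrain and forebrain neuroblasts, 7 lay below it, among them Dlx1, Dlx2, Dlx5 and Emx1. Signals of proliferating progenitors varied by marker. Mki67 averaged 10.09 in Gb5 KO and 9.98 in WT, and Mfap4 10.02 in Gb5 KO and 10.06 in WT. Atoh1 and Gli1 lay nearer the threshold, at 5.34 and 5.64 in Gb5 KO and 5.11 and 5.35 in WT.

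Promoter sequences are shown for 5 members on which the results below turn: Dcx, Nes and Crmp1, whose arrays separated by genotype, and Nhlh1 and Nhlh2, which encode a pair of related transcription factors with negative differences. They come from the RefSeq table for GRCm38.p6, cover 250 bases before to 50 after the annotated start, and are read 5′ to 3′ on the strand of the gene. Capitals mark the E-boxes CAGCTG and CAGATG, of the kind bound by bHLH factors such as Nhlh1, and the SOX cores ACAAAG and ACAATG, of the kind bound by Sox4 and Sox11, on either strand.
Dcx promoter (chrX:143933170-143933469, minus strand): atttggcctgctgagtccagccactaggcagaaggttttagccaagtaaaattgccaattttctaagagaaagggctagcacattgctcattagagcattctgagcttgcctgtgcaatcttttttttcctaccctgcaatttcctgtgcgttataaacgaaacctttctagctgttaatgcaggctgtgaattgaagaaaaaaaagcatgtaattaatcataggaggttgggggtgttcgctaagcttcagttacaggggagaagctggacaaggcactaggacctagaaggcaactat
Nes promoter (chr3:87970843-87971142, plus strand): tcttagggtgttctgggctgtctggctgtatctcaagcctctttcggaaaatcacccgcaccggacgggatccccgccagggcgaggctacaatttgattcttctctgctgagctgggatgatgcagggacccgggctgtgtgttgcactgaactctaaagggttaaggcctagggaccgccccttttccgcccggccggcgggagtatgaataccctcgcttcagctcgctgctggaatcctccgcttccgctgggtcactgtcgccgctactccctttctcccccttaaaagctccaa
Crmp1 promoter (chr5:37241808-37242107, plus strand): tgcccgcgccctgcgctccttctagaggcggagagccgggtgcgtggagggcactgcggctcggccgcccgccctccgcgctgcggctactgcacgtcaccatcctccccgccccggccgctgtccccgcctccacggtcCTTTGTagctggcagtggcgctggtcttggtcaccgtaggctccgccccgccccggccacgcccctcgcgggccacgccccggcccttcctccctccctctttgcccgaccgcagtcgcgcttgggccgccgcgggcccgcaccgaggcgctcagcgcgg
Nhlh1 promoter (chr1:172057547-172057846, minus strand): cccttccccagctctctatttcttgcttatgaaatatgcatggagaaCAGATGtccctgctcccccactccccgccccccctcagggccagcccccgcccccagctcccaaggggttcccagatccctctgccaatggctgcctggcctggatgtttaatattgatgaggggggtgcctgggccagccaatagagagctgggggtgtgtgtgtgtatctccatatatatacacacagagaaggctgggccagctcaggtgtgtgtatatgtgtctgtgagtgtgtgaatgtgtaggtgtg
Nhlh2 promoter (chr3:102009895-102010194, plus strand): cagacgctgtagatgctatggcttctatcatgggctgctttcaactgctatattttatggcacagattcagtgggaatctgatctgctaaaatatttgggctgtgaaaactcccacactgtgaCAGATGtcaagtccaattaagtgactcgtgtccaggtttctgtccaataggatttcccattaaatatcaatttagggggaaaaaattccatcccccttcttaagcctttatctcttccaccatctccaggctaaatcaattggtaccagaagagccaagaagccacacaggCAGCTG

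The windows shown for Dcx and Nes held none of the 4 motifs, and that of Crmp1 held 1 ACAAAG core. That of Nhlh1 held 1 CAGATG E-box, and that of Nhlh2 held 1 of each E-box. Dcx and Crmp1 have 2 listed promoters each, of which only 1 is shown and described here. The E-box CAGCTG was found in 8 of 30 promoters listed for 23 members (26.7%) and in 16.3% of all 32851 promoters, and CAGATG in 8 of 30 (26.7%) and in 17.2%. ACAAAG was found in 6 of 30 (20%) and in 18.7%, and ACAATG in 3 of 30 (10%) and in 12.6%. Some genes have several overlapping starts in the table, and a match is a string of letters and not a shown binding site.

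No member passed the test between genotypes. Of 33 members, 32 had a mean signal above the 30th percentile of all probe sets (4.70), and limma's moderated test with Benjamini-Hochberg adjustment over 14067 genes called 0 of the 32 at 0.05; 5 of all genes (0.0355%) were called. Adjusted p of the members ran from 0.553 to 0.996. An unadjusted p under 0.05 was seen for 3 of the 32, Dcx, Crmp1 and Nes, and for 8.57% of all genes. The arrays of the genotypes did not overlap for 4 of the 32 and for 14.9% of all genes: 1 member lay higher in Gb5 KO (10.1% of all genes) and 3 lower (4.82%). Log2 differences were positive for 15 members and negative for 17, with a median of -0.01 against 0.03 for all genes. They lay between -0.25 and 0.34, and for 28 of the 32 they were under 0.2 in size. For the probe set that represented each gene, the data limit how large a missed difference in signal could be. Its 95% interval, not adjusted for the number of genes, lay within 0.25 of 0 for 14 members and within 0.5 of 0 for 28. No such interval reached below -0.54 or above 0.63. Other probe sets of the members are not covered by these bounds, and a dim one of Ncam1 stood at -0.69. In bulk tissue fewer cells of a type and less RNA per cell cannot be told apart. Without Gb5 KO array 6, 0 members were called as well and their median was 0.00.

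**Figure D1:**
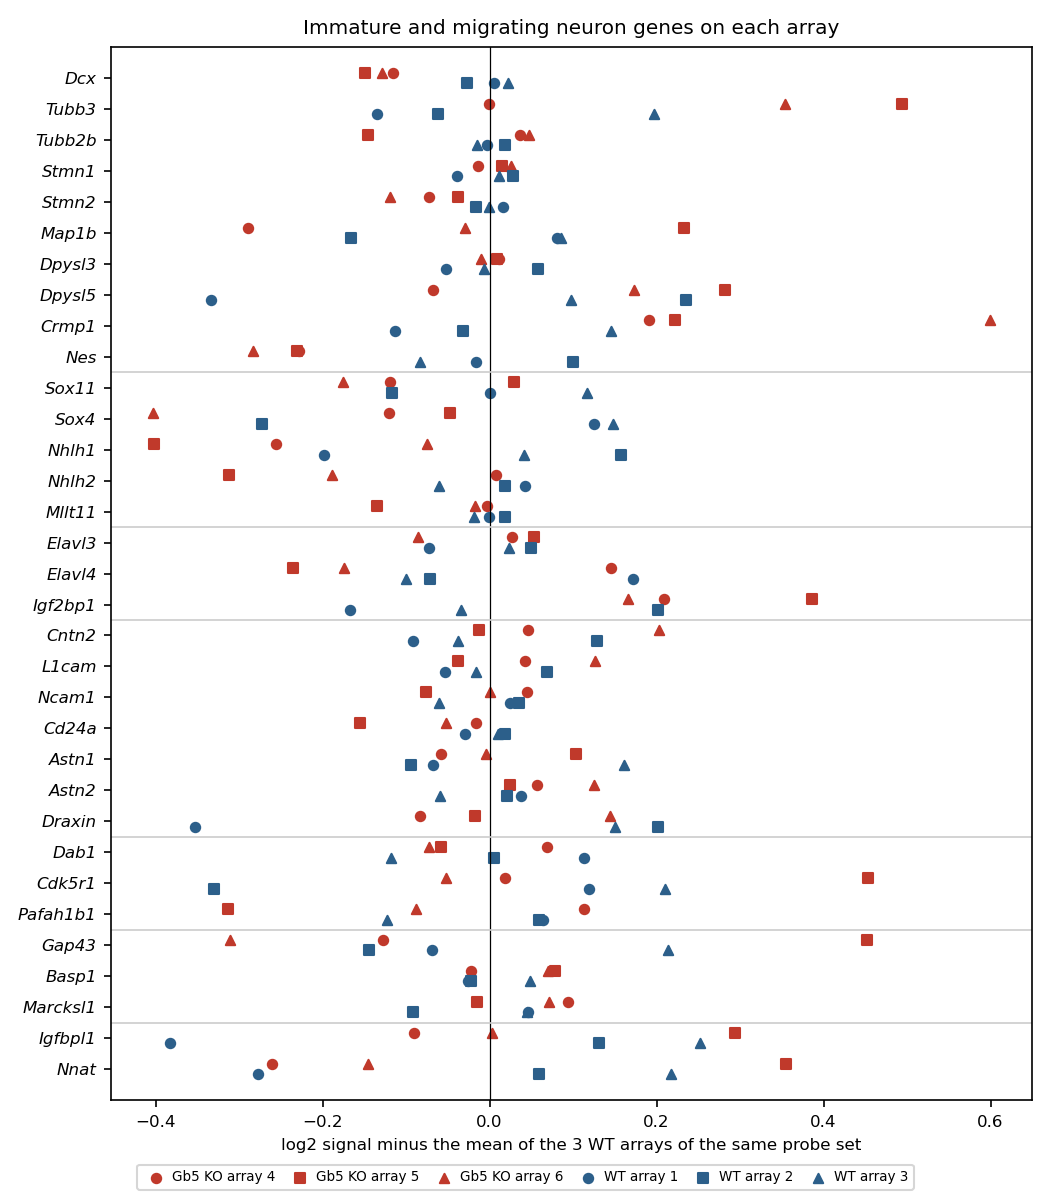
Log2 signal of each of the 33 members on each array, minus the mean of the 3 WT arrays of the same probe set; red symbols are the 3 Gb5 KO arrays and blue symbols the 3 WT arrays, and grey lines separate the groups by role. Red and blue symbols separate fully for Dcx, Stmn2, Crmp1 and Nes, and intermix for most other members.

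The 10 members that build or steer the cytoskeleton held all 4 of the 32 whose genotypes did not overlap, beside 14.9% of all genes. Dcx, Nes and Stmn2 lay lower in Gb5 KO (4.82% of all genes did) and Crmp1 higher (10.1%). None passed, and the grouping by role carries no test. Dcx, the X-linked microtubule protein of migrating neurons, read 12.57, 12.53 and 12.55 in Gb5 KO, against 12.69, 12.65 and 12.70 in WT. The Gb5 KO arrays lay close together and all below the WT arrays, which also lay close together. The log2 difference was -0.13 (SE 0.05; 95% interval -0.24 to -0.03; limma adjusted p = 0.553), and it ran from -0.14 to -0.12 when any 1 array was left out. With the mean of its 4 probe sets the difference was -0.0092. A second bright Dcx probe set pointed the other way, at 10.83, 11.03 and 11.07 in Gb5 KO and 10.71, 10.78 and 10.99 in WT (log2 difference 0.15, adjusted p = 0.727 over all probe sets), and its genotypes overlapped.

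Crmp1, a collapsin response mediator protein of semaphorin signalling, read 10.38, 10.41 and 10.79 in Gb5 KO, against 10.07, 10.15 and 10.33 in WT. The Gb5 KO arrays lay above the WT arrays, and array 6 was the highest of them. The log2 difference was 0.34 (SE 0.13, 95% interval 0.04 to 0.63, limma adjusted p = 0.573) with all arrays. It was 0.20 with Xist as a covariate and 0.21 without array 6. That array held both the differing sex-linked signals and the larger Gapdh 3′ minus 5′ signal. Sex and RNA quality therefore cannot be told apart there, and their part in the difference was not tested. The Crmp1 relatives Dpysl3 and Dpysl5, both microtubule-associated, had log2 differences of 0.00 and 0.13 (limma adjusted p = 0.985 and 0.784). With the mean of a gene's probe sets, Dpysl3 stood at 0.10 and Dpysl5 at 0.18. Dpysl5 read 9.27, 9.62 and 9.51 in Gb5 KO and 9.00, 9.57 and 9.43 in WT, with WT array 1 the lowest, and the arrays of the genotypes intermixed.

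Nes, the intermediate filament protein of neural progenitors, which vessel cells can also make, read 8.06, 8.05 and 8.001 in Gb5 KO, against 8.27, 8.38 and 8.201 in WT. The log2 difference was -0.25 (SE 0.10; 95% interval -0.47 to -0.02; limma adjusted p = 0.574). Its other probe sets had differences of -0.14 and, for one below the low-signal threshold, -0.01; the mean of its 3 probe sets gave -0.14. None of 8 measured endothelial and pericyte markers was called. The pericyte gene Rgs5 had a value of -0.24 and Flt1, a VEGF receptor, one of -0.22. Over the 8 markers 3 values were positive and 5 negative, with a median of -0.07. The mean level of these markers lay between 9.61 and 9.74 on the Gb5 KO arrays and between 9.69 and 9.72 on the WT arrays. The defining endothelial marker Pecam1 was below the low-signal threshold, and the part of vessel cells in the Nes value was not tested.

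Stmn2, a growth cone stathmin that loosens microtubules, read 12.98, 13.02 and 12.93 in Gb5 KO, against 13.07, 13.04 and 13.05 in WT, a log2 difference of -0.08 (SE 0.04; limma adjusted p = 0.612). Its second probe set gave 0.01. Stmn1, the ubiquitous stathmin of dividing and young cells, read 13.30, 13.32 and 13.33 in Gb5 KO and 13.27, 13.34 and 13.32 in WT. That is a difference of 0.01, with a 95% interval from -0.08 to 0.10. Tubb3, the neuron-specific beta tubulin, read 11.80, 12.29 and 12.15 in Gb5 KO, against 11.66, 11.74 and 12.00 in WT. Gb5 KO array 4 lay inside the WT range, and the log2 difference was 0.28 (SE 0.13; limma adjusted p = 0.596). It was 0.18 without Gb5 KO array 5 and 0.42 without Gb5 KO array 4 (limma adjusted p = 0.226). Tubb2b, another beta tubulin of young neurons, differed by -0.02 (95% interval -0.15 to 0.11), and 1 more probe set shared between it and the pseudogene Tubb2a-ps2 was not used. Map1b, a microtubule protein of growing axons, read 10.04, 10.56 and 10.30 in Gb5 KO and 10.41, 10.16 and 10.41 in WT, a difference of -0.03 (SE 0.14). Its other probe sets, with mean signals of 7.44 and 6.35, gave -0.49 and 0.21 (limma adjusted p = 0.679 and 0.858 over all probe sets). The mean of its 3 probe sets gave -0.10.

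**Figure D2:**
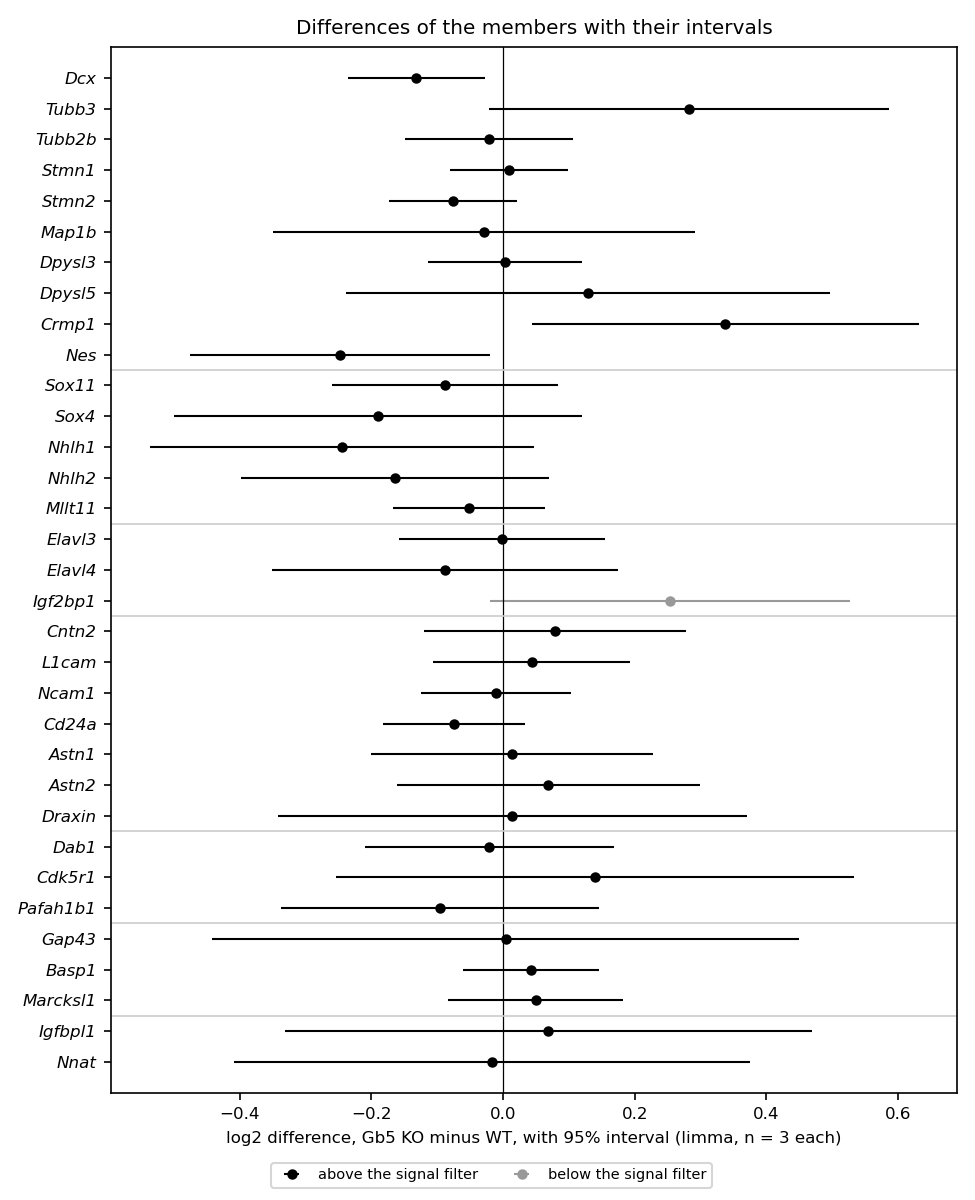
Log2 difference, Gb5 KO minus WT, of each member with its 95% interval from limma (n = 3 arrays each); the member below the low-signal threshold is in grey. Most intervals cross 0, and those of Dcx and Nes lie below it and that of Crmp1 above it before adjustment for the number of genes.

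The 5 genes of transcriptional control had negative differences on their brightest probe sets and none passed, while 43.3% of all genes tested had negative ones; with the mean of a gene's probe sets Sox4 stood at 0.0011 and Mllt11 at 0.024. Sox4 and Sox11, SoxC factors that switch on neuronal genes in postmitotic cells, had log2 differences of -0.19 (SE 0.14; limma adjusted p = 0.653) and -0.09 (SE 0.08; limma adjusted p = 0.697). Sox4 read 11.15, 11.22 and 10.87 in Gb5 KO and 11.40, 10.998 and 11.42 in WT, with WT array 2 inside the Gb5 KO range. Nhlh1, a bHLH factor made briefly in newborn neurons, read 9.43, 9.28 and 9.61 in Gb5 KO and 9.48, 9.84 and 9.73 in WT, a difference of -0.24 (SE 0.13; 95% interval -0.54 to 0.05; limma adjusted p = 0.612). Its relative Nhlh2 read 10.30, 9.98 and 10.10 in Gb5 KO and 10.33, 10.31 and 10.23 in WT, a difference of -0.16 (SE 0.10; limma adjusted p = 0.626). In both, 1 Gb5 KO array lay inside the WT range, array 6 for Nhlh1 and array 4 for Nhlh2. Mllt11, expressed as neurons differentiate, had a difference of -0.05, and its second probe set one of 0.10. The mean level of the 5 genes lay between 11.21 and 11.29 on the Gb5 KO arrays and between 11.35 and 11.43 on the WT arrays, which is a description of genes picked for a shared role and carries no test. With 1 array left out, the difference of Sox4 ran from -0.33 (without WT array 2) to -0.08 (without Gb5 KO array 6), that of Sox11 from -0.15 (without Gb5 KO array 5) to -0.03 (without WT array 3) and that of Nhlh2 from -0.25 (without Gb5 KO array 4) to -0.09 (without Gb5 KO array 5). Of 21 other measured neuronal transcription factors none was called, with 10 positive, 11 negative, a median of -0.01, and values of -0.25 for Insm1 and -0.19 for Prox1.

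RNA-binding proteins of young neurons held no member that passed. Elavl3 and Elavl4, neuronal Hu proteins that bind AU-rich mRNAs, had log2 differences of -0.0013 (SE 0.07; limma adjusted p = 0.996) and -0.09 (SE 0.12; limma adjusted p = 0.795). Elavl4 read 11.86, 11.48 and 11.54 in Gb5 KO and 11.89, 11.64 and 11.62 in WT, so 1 array of each genotype stood above the rest. Igf2bp1, which binds beta-actin and other mRNAs in embryonic neurons, was the member below the low-signal threshold, at 4.34, 4.51 and 4.29 in Gb5 KO and 3.96, 4.33 and 4.09 in WT; its 4 probe sets were all dim. Of 18 other measured neuronal RNA-binding proteins none was called, with a median of 0.03 and values of 0.41 for the splicing factor Nova2 and -0.23 for Msi2.

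Adhesion and guidance proteins held no member that passed, and their 7 log2 differences lay between -0.07 and 0.08. Cntn2 and L1cam, immunoglobulin-family proteins on growing axons, had log2 differences of 0.08 (95% interval -0.12 to 0.28) and 0.04 (95% interval -0.11 to 0.19). L1cam is X-linked like Dcx; it read 12.11, 12.03 and 12.19 in Gb5 KO and 12.01, 12.14 and 12.05 in WT, with array 6 the highest. Ncam1, the neural cell adhesion molecule, read 13.10, 12.98 and 13.05 in Gb5 KO and 13.08, 13.09 and 12.99 in WT, a difference of -0.01 (95% interval -0.12 to 0.10). Cd24a, a small glycoprotein of newborn neurons, differed by -0.07 (limma adjusted p = 0.628), and its 3 probe sets had one sign. Astn1, by which granule neurons hold on to glial fibres, and Astn2, which controls its amount at the surface, differed by 0.01 (95% interval -0.20 to 0.23) and 0.07 (95% interval -0.16 to 0.30). Draxin, a secreted repellent of axons, read 9.13, 9.19 and 9.35 in Gb5 KO and 8.86, 9.41 and 9.36 in WT; WT array 1 was the lowest of all and the difference was 0.01 (SE 0.16). Of 14 other measured adhesion and polysialylation genes none was called, with a median of -0.02 and values of 0.16 for Cntn6 and -0.15 for Cntn3.

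The Reelin and LIS1 pathways, which stop migrating neurons at their layer and pull the nucleus forward, showed no passing gene. Dab1, the adaptor that Reelin receptors phosphorylate, read 11.45, 11.32 and 11.31 in Gb5 KO and 11.49, 11.38 and 11.26 in WT, a difference of -0.02 (95% interval -0.21 to 0.17). Cdk5r1, the p35 activator of Cdk5, read 10.72, 11.15 and 10.65 in Gb5 KO and 10.82, 10.37 and 10.91 in WT. The arrays of the genotypes intermixed, and the difference was 0.14 (SE 0.17; limma adjusted p = 0.781). Pafah1b1, the dynein regulator LIS1, differed by -0.10 (SE 0.11; limma adjusted p = 0.757), and all 5 of its probe sets were negative. Of 20 partners measured, none was called, with 13 positive and a median of 0.03. Nudc, a dynein-associated protein, had a value of 0.37 and the dynactin subunit Dctn1 one of 0.23. Both read highest on Gb5 KO array 6, at 11.73 and 11.01.

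Of the growth cone and secreted proteins, Gap43 had the largest SE of the measured members, 0.20. Gap43, a growth cone phosphoprotein, read 8.74, 9.32 and 8.56 in Gb5 KO and 8.80, 8.72 and 9.08 in WT, a difference of 0.00 with a wide 95% interval from -0.44 to 0.45. Basp1, its functional relative, was tighter, at 13.25, 13.35 and 13.34 in Gb5 KO and 13.25, 13.25 and 13.32 in WT, a difference of 0.04 (SE 0.05). Marcksl1, an actin-linked membrane protein, also differed by 0.05 (SE 0.06), and its 4 probe sets had one sign. Nnat, an imprinted small membrane protein, read 11.71, 12.33 and 11.83 in Gb5 KO and 11.70, 12.03 and 12.19 in WT, a difference of -0.02 (SE 0.17). Igfbpl1, a secreted protein of newborn neurons, read 9.66, 10.04 and 9.75 in Gb5 KO and 9.36, 9.88 and 9.997 in WT, a difference of 0.07 (SE 0.18). Gb5 KO array 5 was the highest of its genotype for Gap43, Nnat, Igfbpl1, Cdk5r1 and Tubb3, and WT array 1 the lowest of its genotype for Nnat, Igfbpl1, Draxin, Dpysl5 and Tubb3. Over the 32 members, Gb5 KO array 5 was the highest Gb5 KO array for 13 and the lowest for 13, and it was the highest for 39.3% of all genes. WT array 1 was the lowest WT array for 14 members, with a median deviation of -0.02 from the WT mean, the same as that of all genes. It was the highest WT array for 7 members and for 27.9% of all genes. The mean of 6 choroid plexus markers ran from 6.45 to 8.11 over the Gb5 KO arrays and from 6.98 to 8.62 over the WT arrays (median difference -0.03), and its part in the members' values was not tested. Of 15 other measured growth cone genes none was called, with a median of -0.04 and values of 0.26 for Dbn1 and -0.16 for Enah.

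Probe sets of the same member often disagreed. Of 21 members with several probe sets above the low-signal threshold, 12 had differences of both signs and 9 of one sign. Tested on their own over 45037 probe sets, 0 of the 93 were called by limma at an adjusted 0.05, against 0.0222% of all probe sets; 6 had an unadjusted p under 0.05 (7.61% of all) and 9 did not overlap between genotypes (13.6% of all). Dab1 was split, with probe sets at -0.24 and at 0.26 and 0.30 beside its brightest at -0.02. For the Ncam1 probe set with the lowest p, signals were 4.90, 4.99 and 4.24 in Gb5 KO and 5.37, 5.55 and 5.27 in WT, a difference of -0.69 (limma adjusted p = 0.567 over all probe sets). It was the dimmest of the 7 Ncam1 probe sets, its lowest value was on array 6, and the brightest 2 gave -0.01 and -0.09. Another, with a mean signal of 8.53, gave -0.26 and its genotypes did not overlap (limma adjusted p = 0.647 over all probe sets). A dimmer one gave 0.06, and the mean of the 7 Ncam1 probe sets gave -0.15. The transcripts that single probe sets detect were not mapped here.

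**Figure D3:**
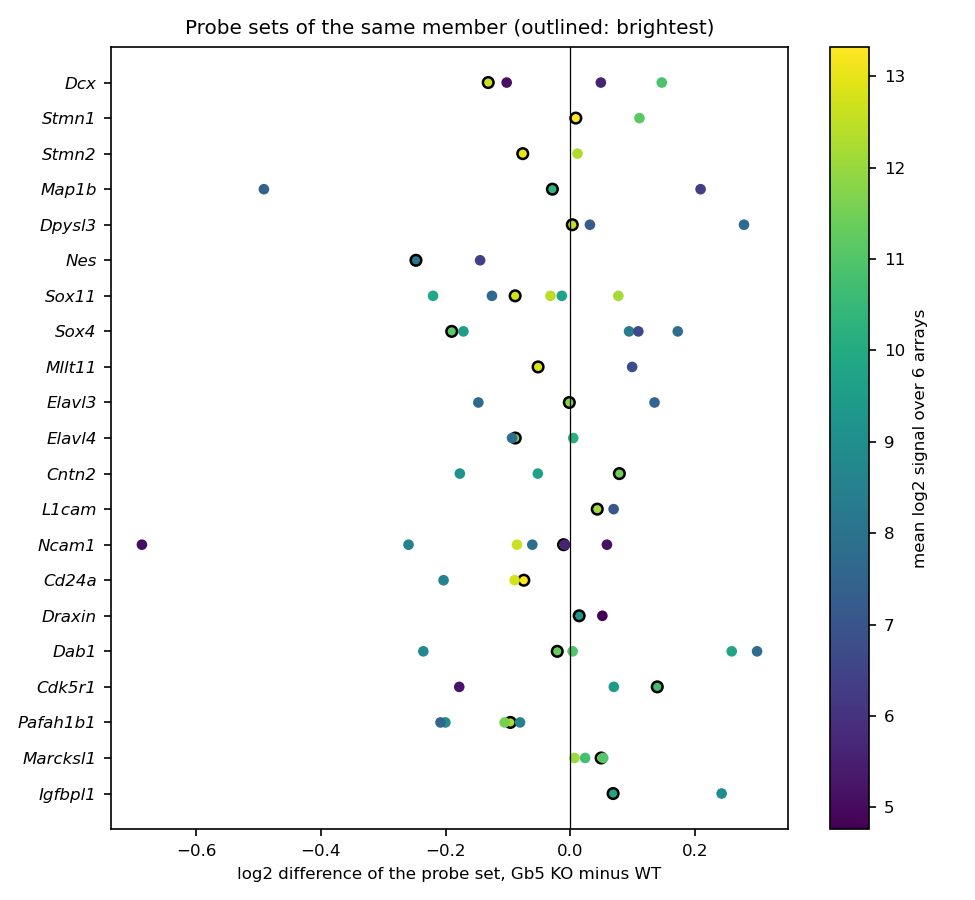
Log2 difference, Gb5 KO minus WT, of every probe set above the low-signal threshold for the 21 members with more than 1; colour gives the mean log2 signal and the black outline marks the probe set that represented the gene. Probe sets of Dab1, Map1b, Sox4 and Ncam1 spread widely on both sides of 0 or away from the outlined one.

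Genes that follow the immature state were compared beside the members. Of 19 measured genes of mature neurons none was called; 8 differences were positive and 11 negative, with a median of -0.04 against -0.01 for the members and 0.03 for all genes. Grin2c, the NMDA receptor subunit that mature granule cells acquire, read 9.55, 9.07 and 9.73 in Gb5 KO, against 9.02, 9.00 and 8.81 in WT, a log2 difference of 0.51 (SE 0.17; limma adjusted p = 0.553). Its juvenile counterpart Grin2b differed by -0.01. Gabra2, a GABA-A receptor subunit that young granule cells use, read 10.99, 11.05 and 10.99 in Gb5 KO, against 11.43, 11.43 and 11.16 in WT, a difference of -0.33 (SE 0.09; limma adjusted p = 0.470). Gabra6, its mature counterpart, differed by -0.18 (limma adjusted p = 0.738). The chloride importer Slc12a2 of young neurons differed by -0.11, and the exporter Slc12a5 of mature ones by 0.17 (limma adjusted p = 0.695 and 0.573). Sv2a, a synaptic vesicle protein, had the lowest value of the mature list, -0.28. Of 24 other tubulins and microtubule proteins none was called, with a median of -0.02; Stmn4, a neuronal stathmin, had a value of -0.29 and the doublecortin-like kinase Dclk2 one of 0.27.

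Markers of other cells were read beside these values. None of 13 measured proliferating progenitor markers was called, with 9 positive, a median of 0.11 and 0.35 for Barhl1 and 0.29 for Gli1. Barhl1 and Gli1 read highest on Gb5 KO array 6, at 8.16 and 5.84. The mean level of the 13 markers lay between 8.81 and 9.06 in Gb5 KO and between 8.59 and 9.00 in WT. Oligodendrocyte precursors, which share Sox4, Sox11 and other members with young neurons, had a median of 0.01 over 9 markers. Of these 5 were positive and 4 negative, with -0.15 for Gpr17 and for Lhfpl3. Levels of the 9 markers ran from 10.21 to 10.39 in Gb5 KO and from 10.19 to 10.37 in WT. Levels of 6 myelin markers lay between 11.61 and 11.74 in Gb5 KO and between 11.74 and 11.80 in WT. Of these markers 2 had positive and 4 negative differences, with a median of -0.12. Ermn stood at -0.30, Mobp at -0.20 and Mag at 0.18. Levels of 7 meningeal markers lay between 10.05 and 10.24 in Gb5 KO and between 10.29 and 10.36 in WT. Their differences were positive for 1 and negative for 6, with a median of -0.11 and values of -0.56 for Ogn and -0.28 for Igf2. Granule cell markers were split: of 5, the values of Gabra6, Cbln3 and Neurod1 lay between -0.18 and -0.10, while Grin2c stood at 0.51 and Fat2, a large cadherin of granule cells, at 0.35 (limma adjusted p = 0.574), and their median was -0.10. For Grin2c and Fat2 the Gb5 KO arrays lay above the WT arrays, as they did for 10.1% of all genes, and array 6 was the highest. The margins were small: the lowest Gb5 KO array read 9.07 for Grin2c and 9.814 for Fat2. The highest WT array read 9.02 and 9.812. Of 5 Purkinje cell markers 1 value was positive and 4 negative, with -0.13 for Car8 and 0.06 for Pcp2 and a median of -0.03. Of the 3 forebrain markers above the low-signal threshold, Tbr1, which cells of the cerebellar nuclei also make, had a value of -0.48 and Eomes, found in unipolar brush cells too, one of 0.24. Bergmann glia and astrocyte markers had a median of -0.01 over 10, with 0.22 for Aldh1l1 and 0.15 for Fabp7. None of these lists held a called gene, and their part in the members' values was not tested.

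**Figure D4:**
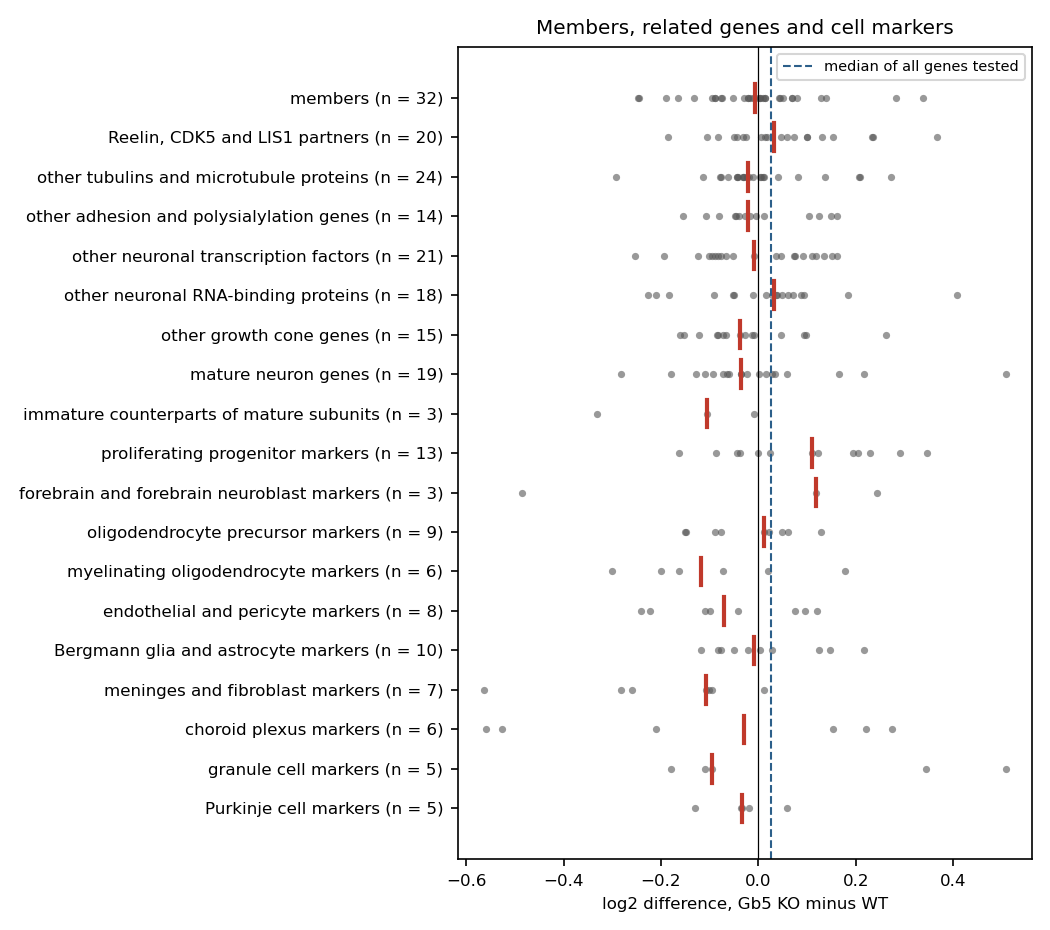
Log2 difference, Gb5 KO minus WT, of each measured gene of the members, of related genes and of cell marker lists; red bars are list medians and the dashed line is the median of all 14067 genes, 0.03. The median of the 32 measured members, -0.01, lies close to 0, and single genes of several lists reach further from 0 than any member.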

How the data were processed

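Total RNA of 6 brains was labelled with biotin and hybridised to single-colour Affymetrix arrays, per the labels' protocols. The authors deposited log2 values, 1 per probe set and array; the submitters' processing notes name RMA and Partek without versions. RMA equalises arrays, so a global change in RNA would not be seen. Array medians lay between 6.48 and 6.57. The small number of arrays limits the precision. Symbols came from the platform annotation, updated through Entrez identifiers in the RefSeq table for GRCm38.p6 (34741 of 34945 single-gene probe sets; 932 with several genes were not used).

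Genotypes came from the sample labels. A gene was represented by its brightest probe set and kept above a low-signal threshold, the 30th percentile of probe set means. Gb5 KO minus WT was fitted with limma 3.58.1 in R 4.3.3 (intensity trend, two-sided) over 14067 genes, and genes were called at an adjusted p of 0.05. The fit was tested on simulated data. The members and lists were chosen with earlier results of these data known. All members are named, and of each other list any called gene and at most 2 with the largest difference; other named genes, such as those of the marker checks and the subunit counterparts, were chosen after their values were seen. Listed genes without a single-gene probe set were not analysed here. Alternatives were other filters, normalizations, probe choices, variance models, array weights, Xist as a covariate and each array left out.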

Additional observations from a re-analysis of the deposited data

How the results depend on the processing

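No member was called by limma under any of the 16 alternatives, nor with each probe set tested on its own. In the main fit, 3 of the 32 members had an unadjusted p under 0.05, as did 8.57% of all genes. The smallest adjusted p of a member over the alternatives was 0.226, for Tubb3 without Gb5 KO array 4. The number of all genes called was 5, and it was 8 with no filter, 3 with a filter at the 50th percentile and 2 with Xist as a covariate. It was 8 without Gb5 KO array 4, 2 without Gb5 KO array 6, 10 without WT array 1, 3 without WT array 2 and 3 without WT array 3. The median of the members was -0.032 with equal array medians, -0.031 with array weights and between -0.026 (without WT array 1) and 0.012 (without WT array 3) with 1 array left out. Of 511 member values under these alternatives 62 changed sign, over 19 members, none of them called, and 13 members kept their sign throughout. With a second quantile normalization, the sign turned for Elavl3 (0.018), Ncam1 (0.0034), Gap43 (-0.016) and Nnat (0.0048). With equal array medians, the sign turned for Stmn1 (-0.017), Dpysl3 (-0.022), Astn1 (-0.012), Draxin (-0.011) and Gap43 (-0.022). With the mean of a gene's probe sets, the sign turned for Sox4 (0.0011), Mllt11 (0.024), Cntn2 (-0.060), Dab1 (0.061) and Cdk5r1 (-0.046). Without probe sets prone to shared sequence (suffixes _x_at and _s_at), the sign turned for Dab1 (0.0040). With array weights, the sign turned for Tubb2b (0.0097), Ncam1 (0.025), Astn1 (-0.070), Draxin (-0.044), Dab1 (0.032), Cdk5r1 (-0.0058), Gap43 (-0.19) and Igfbpl1 (-0.092). With Xist as a covariate, the sign turned for Stmn1 (-0.0015), Elavl3 (0.039), L1cam (-0.0063), Draxin (-0.071), Dab1 (0.0069) and Nnat (0.050). With 1 array left out, the sign turned for Map1b (-0.16 to 0.10), Dpysl3 (-0.022 to 0.032), Nnat (-0.20 to 0.10), Tubb2b (-0.054 to 0.042), Ncam1 (-0.041 to 0.022), Astn1 (-0.033 to 0.094), Cdk5r1 (-0.025 to 0.24), Pafah1b1 (-0.20 to 0.013), Gap43 (-0.22 to 0.16), Igfbpl1 (-0.12 to 0.20), Elavl3 (-0.038 to 0.041), Draxin (-0.16 to 0.12), Dab1 (-0.080 to 0.036), Stmn1 (-0.010 to 0.023) and Dpysl5 (-0.037 to 0.25). The sign held but the value moved by over 1.5 times with 1 array left out for Tubb3, Crmp1, Sox11, Sox4 and Nhlh2, and for Mllt11 (-0.076 to -0.0098), Elavl4 (-0.20 without Gb5 KO array 4 to -0.0023 without WT array 1), Cntn2 (0.017 to 0.14), L1cam (0.0020 to 0.084), Cd24a (-0.10 to -0.034), Astn2 (0.040 to 0.091), Basp1 (0.024 to 0.074) and Marcksl1 (0.0040 to 0.082). The cause was not tested. No paired analysis was possible because the labels give no pairing of the mice, so effects of litter were not modelled.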
